A study of Homo sapiens with 6 samples.

Results

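Surface markers of monocytes and macrophages were read on 6 Affymetrix HG-U133 Plus 2.0 arrays of OCI-AML3, a human acute myeloid leukaemia cell line whose cells the study describes as carrying a nucleophosmin (NPM1) mutation. One group of 3 samples was given DMSO, the solvent, and the other 3 were given 1 μM Vorinostat (SAHA), an inhibitor of histone deacetylases, each for 24 h and with the replicate numbers 1, 2 and 3. All 6 come from this 1 cell line and carry its alterations. Neither the labels nor the methods say that replicates were separate cultures, and p-values therefore speak of the spread among these samples alone, which may be technical. The markers are 10 genes chosen by name, and every probe set that names 1 of them alone was taken. That gave 20 of the 54613 probe sets tested, for 9 of the 10 genes, and CD33 was not analysed here. A probe set is a group of short probes that read 1 stretch of a transcript, and its value is on the log2 scale as the authors deposited it, so a difference of 1 is a 2-fold change.

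Monocytes leave the blood and mature into macrophages in tissue, and both carry receptors that sense microbial products, bind growth factors and take up dying cells. CD14 and TLR2 bind bacterial lipids and LY86 belongs to a related receptor complex on myeloid and B cells. CSF1R carries the survival signal of the lineage, ITGAM is the alpha chain of a leukocyte integrin, CD86 gives the second signal to T cells, and MERTK, CD163 and CD36 are receptors for dying cells, haemoglobin and lipids. Inhibitors of histone deacetylases have been studied as inducers of differentiation in myeloid leukaemia, for which such markers are a usual readout.

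LY86 was higher with Vorinostat in each of the 3 replicate numbers, by 0.70, 0.75 and 0.92, and the mean difference was 0.79, which did not pass the test without a block. The values do not show that arrays of the same number are pairs outside number 1. One of 5 probe sets of CD36, 228766_at, was lower in each number, with differences of -1.35, -0.41 and -0.45, and each of the others went both ways. The mean of 228766_at, -0.73, had a standard error of 1.46 and an unadjusted p = 0.635 from limma without a block. MERTK and CD163 each had 1 probe set with an unadjusted p under 0.05 from limma, at differences of 0.33 and 0.27 and values under 2 on every array. Their other probe sets differed by 0.04 and -0.17 for MERTK and by -0.05 and 0.10 for CD163. CD14, CSF1R and ITGAM read under 2.19 on all 6 arrays, with differences of 0.10, -0.02 and, for the ITGAM pair, 0.17 and 0.02. No member probe set passed an adjusted p under 0.05 from limma or the study's own rule, here called its threshold (a change of over 2-fold and p under 0.05 before adjustment).

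Signal differed between arrays more than between groups. Of the 54613 probe sets, 15.8% lay above a log2 value of 3 on DMSO replicate 1 and 14.9% on Vorinostat replicate 1, against 5.06% to 6.83% on the other 4 arrays. No threshold of detection came with the table, and the value of 3 serves here as a mark of the low range, under which the size of a change is poorly measured. On the number 1 arrays 5 of the 20 member probe sets lay above 3, and on each of the other 4 arrays 1 did. Changes are therefore given within each replicate number as well as between group means.

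The promoters of LY86 and MERTK are shown because these were the 2 genes whose brightest probe set was higher in each replicate number, and that of CD14 because it is the classical marker of monocytes. Each is the 250 bases before a start of transcription, read 5′ to 3′ from RefSeq for build GRCh38.p14. For CD14 the stretch lies inside the gene as annotated (bases 140631732 to 140633701), downstream of the gene's outermost 5′ end. Capitals mark matches on either strand to GAGGAA, the core that the ETS factor PU.1 of the monocyte lineage binds, or to the GC box GGGCGG.
LY86, chr6:6588470-6588719, plus strand: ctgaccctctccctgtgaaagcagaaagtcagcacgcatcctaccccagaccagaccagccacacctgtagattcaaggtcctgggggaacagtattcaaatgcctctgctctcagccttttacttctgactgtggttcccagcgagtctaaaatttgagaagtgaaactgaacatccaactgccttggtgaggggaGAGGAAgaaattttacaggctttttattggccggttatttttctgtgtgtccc
MERTK, chr2:111898357-111898606, plus strand: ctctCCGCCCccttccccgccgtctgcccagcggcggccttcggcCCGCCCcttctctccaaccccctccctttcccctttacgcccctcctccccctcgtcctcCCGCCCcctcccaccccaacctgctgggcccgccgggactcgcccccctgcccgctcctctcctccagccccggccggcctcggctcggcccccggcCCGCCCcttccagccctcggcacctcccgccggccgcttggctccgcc
CD14, chr5:140633176-140633425, minus strand: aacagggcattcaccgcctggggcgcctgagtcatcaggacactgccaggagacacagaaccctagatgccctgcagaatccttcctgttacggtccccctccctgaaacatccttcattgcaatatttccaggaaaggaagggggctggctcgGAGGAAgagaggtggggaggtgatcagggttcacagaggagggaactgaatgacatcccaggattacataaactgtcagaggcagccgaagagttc
The LY86 stretch held GAGGAA once, at position -53 from the start, and so did that of CD14, at position -96, both on the strand shown. The MERTK stretch held no GAGGAA and 4 GC boxes, each on the opposite strand and so printed as CCGCCC, and 78.8% of its bases were G or C, against 48.4% for LY86 and 54.8% for CD14. Among the 16 promoters of the 9 genes, 9 held GAGGAA (56.2%), against 23.6% of 35116 promoters of the same length. They belonged to CD14, CD86, ITGAM, LY86, CSF1R, CD163 and CD36, and the promoters of CD36 partly overlap one another. GGGCGG was held by 4 of the 16 (25%, against 42.6% of all), the C/EBP type element TTGCNNAA by 1 (6.25%, against 9.05%) and TATAAA by 2 (12.5%, against 10.7%). These matches are a description of the letters and were not tested.

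**Figure D1:**
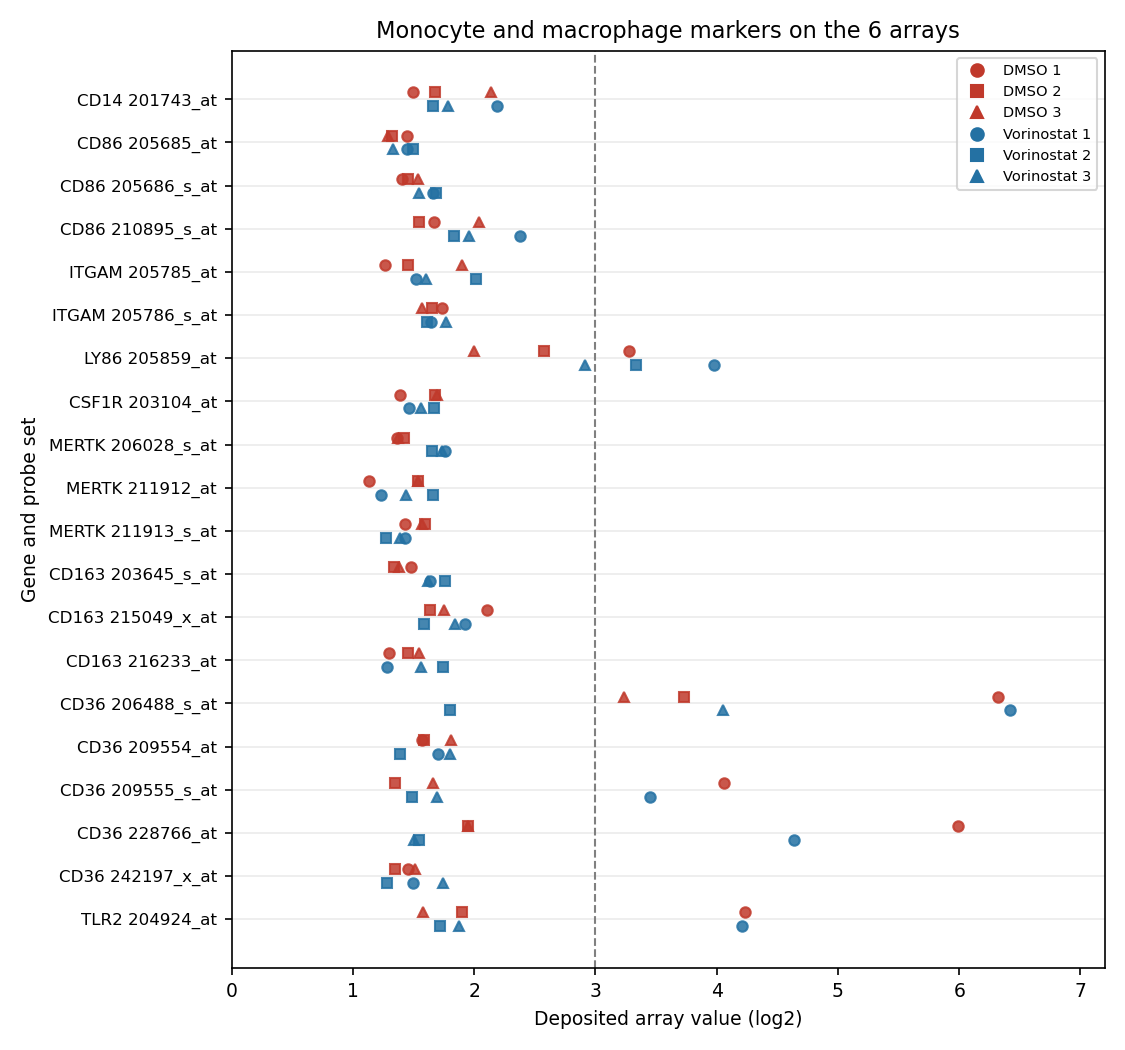
Deposited log2 values of the 20 member probe sets. Points stand for single arrays in red (DMSO) or blue (Vorinostat), the marker shows the replicate number and the dashed line is a log2 value of 3. LY86, TLR2 and 3 of the 5 CD36 probe sets reach past the line, and the other 15 probe sets stay left of it on all 6 arrays.

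At baseline most of the markers lay in the low range. In DMSO and with Vorinostat alike, 15 of the 20 probe sets stayed under 3 on every array, and 5 (25%) lay above it on at least 1 array, against 19.7% of all probe sets. Those 5 read LY86, TLR2 and CD36. None of the 20 lay above 3 on every array, against 3.07% of all probe sets. The median over the 20 was 1.49 to 1.62 on the DMSO arrays and 1.66 to 1.71 on the Vorinostat arrays. A low value does not show that a transcript was absent, only that these probes did not read it clear of the low range.

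Among LY86, CD14 and TLR2, LY86 had the clearest difference. LY86, also called MD-1, is a secreted protein that pairs with the surface receptor CD180. Its probe set 205859_at read 3.28, 2.58 and 2.00 in DMSO replicates 1, 2 and 3, and 3.98, 3.33 and 2.91 in Vorinostat replicates 1, 2 and 3. Each Vorinostat array lay above the DMSO array of its number, while the groups overlapped because DMSO replicate 1 lay above Vorinostat replicate 3. The means were 2.62 ± 0.64 (SD, n = 3) and 3.41 ± 0.54 (SD, n = 3). The difference was 0.79 (standard error 0.42, 95% interval -0.27 to 1.85, unadjusted p = 0.117 and adjusted p = 1 from limma). With the replicate number as a block the interval was 0.51 to 1.07, with an unadjusted p = 0.00137 and an adjusted p = 0.887 from limma. Without both number 1 arrays the difference was 0.83. LY86 was the 1 member probe set at least 0.5 higher in each number, as were 0.112% of all probe sets, and 0 members were at least 0.5 lower, against 0.278%. That level of 0.5 was set after the values were seen. This count and the interval with the block both rest on the pairing within numbers 2 and 3, which these values do not show. Without DMSO replicate 1 the difference was 1.12 with an unadjusted p = 0.0377 from limma, and after quantile normalisation it was 1.14 with an unadjusted p = 0.0404. Under these settings LY86 passed the threshold of the study. The first of them keeps Vorinostat replicate 1, whose signal was also high, without the DMSO array of its number. It was 0.48 without DMSO replicate 3 (unadjusted p = 0.302 from limma) and 0.50 without Vorinostat replicate 1 (unadjusted p = 0.291). The study lists LY86 and MERTK as increasing on these samples, so their direction here is not independent evidence.

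CD180, the partner of LY86, showed no shared direction over the numbers. It read 3.16, 2.07 and 2.25 in DMSO and 2.24, 2.48 and 2.86 with Vorinostat, a difference of 0.03 (standard error 0.34) with the groups overlapping. By number CD180 differed by -0.92, 0.42 and 0.60, and without both number 1 arrays by 0.51. The median of the housekeeping list differed by 0.02, -1.70 and -0.24 in numbers 1, 2 and 3, so LY86 read higher in number 2 where that list read lower. The part of signal differences between arrays in the LY86 values was not tested.

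CD14, the co-receptor that hands bacterial lipopolysaccharide to its signalling receptor, showed no shared direction. Its probe set 201743_at read 1.50, 1.68 and 2.14 in DMSO and 2.19, 1.66 and 1.79 with Vorinostat. The groups overlapped, and the differences by number were 0.69, -0.02 and -0.36. Their mean was 0.10 (standard error 0.23, 95% interval -0.47 to 0.68 from limma), and it was -0.19 without both number 1 arrays.

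TLR2, the receptor for bacterial lipopeptides, read high on both number 1 arrays. Its probe set 204924_at read 4.23, 1.90 and 1.58 in DMSO and 4.21, 1.72 and 1.88 with Vorinostat. The other 4 arrays lay under 2, and the groups overlapped. Of the 20 member probe sets 3 lay above 3 on both number 1 arrays and on no other, against 6.38% of all probe sets. The difference was 0.03 (standard error 1.00, 95% interval -2.48 to 2.54 from limma), so the spread between arrays allows changes past 2-fold either way. Within the numbers the differences were -0.03, -0.18 and 0.30, and with the block the interval was -0.34 to 0.40.

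**Figure D2:**
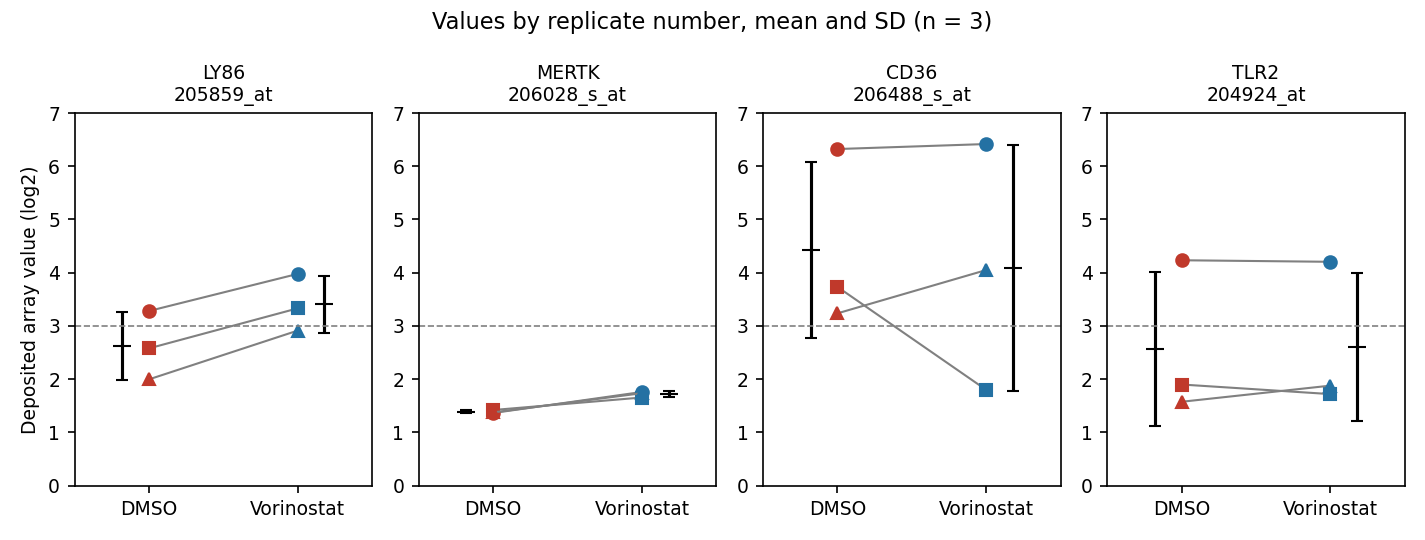
Log2 values of LY86, MERTK, CD36 and TLR2 in DMSO (red) and Vorinostat (blue). Circles, squares and triangles are replicate numbers 1, 2 and 3, grey lines join arrays of the same number, black bars are the mean and SD of n = 3, and the dashed line is a log2 value of 3. All 3 lines of LY86 go up, those of CD36 part, and the number 1 arrays of TLR2 stand at 4.23 and 4.21.

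CD36, a scavenger receptor for oxidised lipids and fatty acids, spread widely over the arrays. Its probe set 206488_s_at read 6.32, 3.73 and 3.24 in DMSO and 6.42, 1.80 and 4.05 with Vorinostat. The number 1 arrays stood alike, Vorinostat replicate 2 was the lowest of all 6 and Vorinostat replicate 3 lay above DMSO replicate 3. The differences were 0.09, -1.93 and 0.81, with a mean of -0.34 (standard error 1.41, 95% interval -3.89 to 3.21 from limma), and leaving out 1 array turned it either way. It was 0.80 without Vorinostat replicate 2, 0.60 without DMSO replicate 1, -0.69 without DMSO replicate 2, -0.94 without DMSO replicate 3 and -1.51 without Vorinostat replicate 1.

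A second CD36 probe set was lower in every number. 228766_at read 5.99, 1.95 and 1.95 in DMSO and 4.64, 1.55 and 1.50 with Vorinostat, with differences of -1.35, -0.41 and -0.45. The groups overlapped, since Vorinostat replicate 1 lay above DMSO replicates 2 and 3. Its mean difference was -0.73 (standard error 1.46, unadjusted p = 0.635 from limma), and with the block the interval was -1.37 to -0.10 with an unadjusted p = 0.0326. Without DMSO replicate 1 the sign turned, to 0.61, but that setting keeps the high Vorinostat replicate 1 without its partner. Without both number 1 arrays the difference was -0.43. Another, 209555_s_at, read 4.06 and 3.45 on the number 1 arrays and under 1.7 on the other 4, and differed by -0.61, 0.14 and 0.03. The last pair, 209554_at and 242197_x_at, stayed under 1.9 on every array and differed by -0.03 and 0.07. The 5 probe sets of CD36 thus gave no common direction.

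MERTK, a receptor tyrosine kinase that binds dying cells through bridging proteins, had probe sets that opposed each other. 206028_s_at read 1.37, 1.42 and 1.38 in DMSO and 1.76, 1.66 and 1.74 with Vorinostat. The groups did not overlap, Vorinostat being higher, and the differences were 0.39, 0.24 and 0.36. Their mean was 0.33 (standard error 0.08, 95% interval 0.12 to 0.54, unadjusted p = 0.00968 and adjusted p = 1 from limma), or with the block an unadjusted p = 0.0271. 211913_s_at lay the other way, with 1.428, 1.595 and 1.573 in DMSO and 1.427, 1.270 and 1.385 with Vorinostat. There the Vorinostat group lay wholly below the DMSO group, in number 1 by a margin under 0.01, and the difference was -0.17 (standard error 0.10, unadjusted p = 0.14 from limma). 211912_at read between 1.13 and 1.66 and differed by 0.04. All 3 lay in the low range, where sizes are poorly measured, so which of them follows the transcript cannot be told here.

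CD163, the macrophage receptor for haemoglobin bound to haptoglobin, also differed by probe set. 203645_s_at read 1.48, 1.34 and 1.38 in DMSO and 1.63, 1.76 and 1.62 with Vorinostat, with the groups apart. Its difference was 0.27 (standard error 0.10, 95% interval 0.03 to 0.51, unadjusted p = 0.0326 and adjusted p = 1 from limma), and the unadjusted p was 0.0636 with the block. The brightest of its probe sets, 215049_x_at, read 1.64 to 2.10 in DMSO and 1.59 to 1.92 with Vorinostat and differed by -0.05, and 216233_at differed by 0.10. For both of these the groups overlapped.

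CD86, the ligand of CD28 on T cells, had 3 probe sets with positive differences of 0.07, 0.17 and 0.30. The one with the groups apart, 205686_s_at, read 1.40, 1.46 and 1.53 in DMSO and 1.66, 1.68 and 1.54 with Vorinostat, a difference of 0.17 (standard error 0.09, unadjusted p = 0.131 from limma). In number 3 it differed by 0.01. The brightest, 210895_s_at, read 1.67, 1.55 and 2.04 in DMSO and 2.38, 1.84 and 1.96 with Vorinostat. Its groups overlapped, and it differed by 0.71, 0.29 and -0.08. 205685_at read between 1.29 and 1.49.

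ITGAM, also known as CD11b and a common flow cytometry marker of myeloid maturation, did not separate the groups. 205786_s_at read 1.57 to 1.74 in DMSO and 1.61 to 1.77 with Vorinostat, and differed by 0.02 (standard error 0.10, 95% interval -0.23 to 0.27 from limma). 205785_at read 1.27 to 1.90 in DMSO and 1.52 to 2.01 with Vorinostat, and its differences of 0.25, 0.56 and -0.29 disagreed in sign. CSF1R, the receptor for CSF1 and IL34, read 1.39, 1.67 and 1.70 in DMSO and 1.46, 1.67 and 1.56 with Vorinostat. It differed by -0.02 (standard error 0.13, 95% interval -0.34 to 0.29 from limma), and its groups overlapped.

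**Figure D3:**
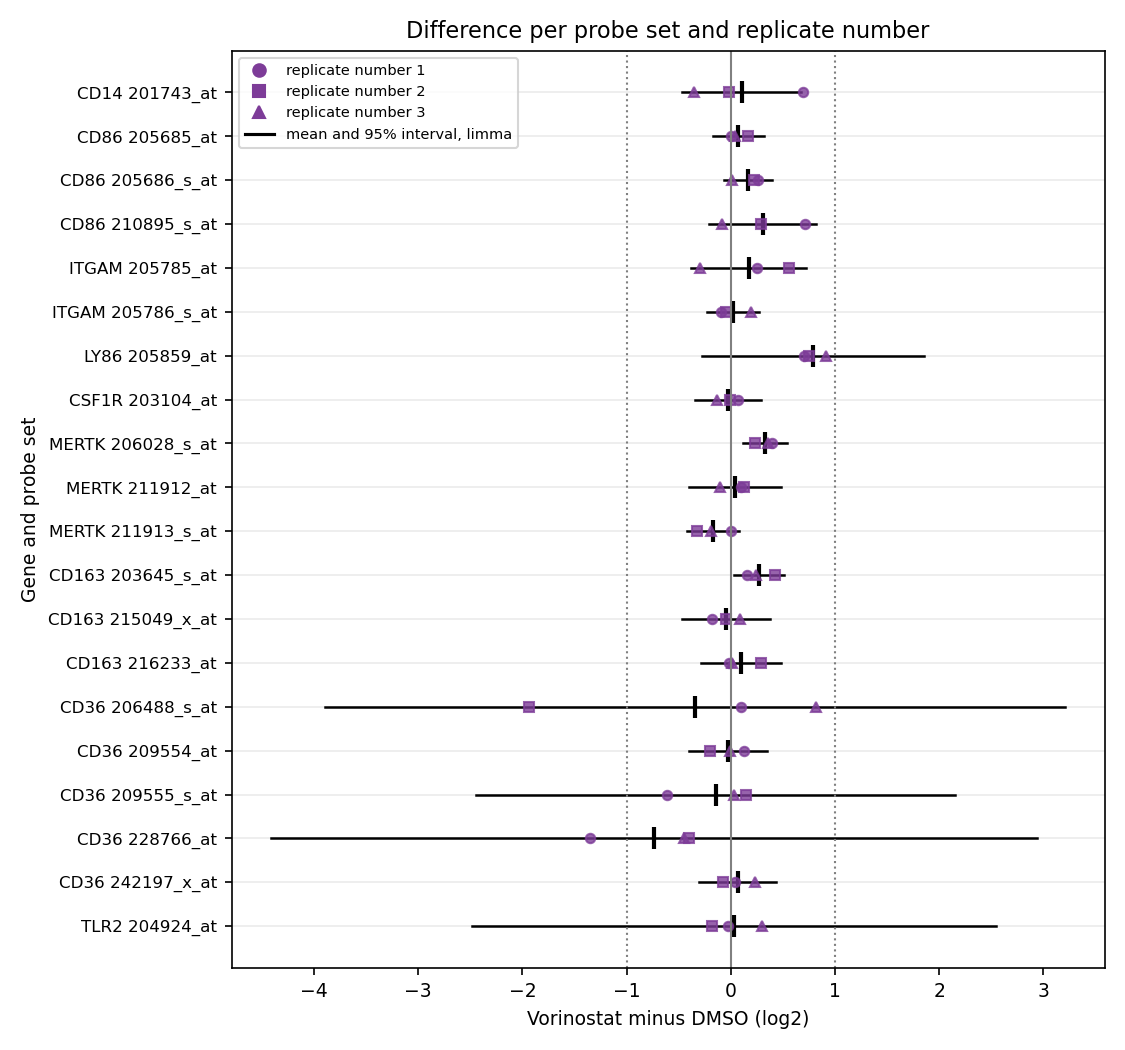
Vorinostat minus DMSO in log2 units for the 20 member probe sets. Purple markers are the differences within replicate numbers 1, 2 and 3, black ticks the mean difference and black lines its 95% interval from limma without a block, and dotted lines mark a 2-fold change. The 3 markers of LY86 lie between 0.70 and 0.92, and the intervals of TLR2 and of 3 CD36 probe sets reach past 2-fold both ways.

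Over the 20 probe sets, 13 had a positive difference and 7 a negative one, with a median of 0.05, against 46.0% positive and a median of -0.02 over all probe sets. By gene, with the brightest probe set of each, 6 of 9 were positive with a median of 0.03, against 46.9% positive and a median of -0.02 over all genes. That median was 0.26 without DMSO replicate 1, 0.36 without Vorinostat replicate 2 and 0.15 without Vorinostat replicate 3. In each replicate number 4 of the 20 were higher and 2 were lower, against 12.4% and 14.7% of all probe sets. The 4 were those of LY86, MERTK (206028_s_at), CD163 (203645_s_at) and CD86 (205686_s_at), and the 2 were those of MERTK (211913_s_at) and CD36 (228766_at). The groups lay apart with Vorinostat higher for 3 and lower for 1, against 2.39% and 2.87% of all probe sets, and all 4 stayed under 2 on every array.

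Before adjustment, 2 of the 20 passed p under 0.05 in limma, both higher, against 0.498% of all probe sets higher and 0.5% lower. They were those of MERTK and CD163. The methods' t-test passed these and that of CD86, against 0.861% and 1.18%. With the block limma gave 2 higher, LY86 and MERTK, and 1 lower, CD36 (228766_at), against 1.59% and 2.09%. At the threshold of the study 0 of 20 passed in either fit, against 0.0165% higher and 0.0275% lower without the block and 0.0952% and 0.32% with it. No probe set of the whole table passed an adjusted p under 0.05 in either fit or by the methods' t-test. The members were chosen with earlier results of these data known, and the study lists LY86 and MERTK as increasing on these samples. The counts of members beside all probe sets, here and in the paragraph above, are therefore a description and no test of the markers as a set.

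Genes that work with the members were read from lists of the same pathways, each by its brightest probe set. None of them passed an adjusted p under 0.05 or the threshold of the study. Among 16 Toll-like receptor partners, 3 were higher and 1 lower in each number, against 13.0% and 13.7% of all genes. The adaptor ligase TRAF6 differed by 0.21 and the trafficking protein UNC93B1 by 0.14, the kinase IRAK1 by -0.73 and the lipopolysaccharide-binding LY96 by -0.14, and the receptor TLR4 by -0.13. With the block, limma gave an unadjusted p = 0.0229 for IRAK1, lower in each number, against 0.316 without it. For the adaptor TIRAP, higher in each number with a difference of 0.39 and named for its p after the values were seen, these were 0.0196 and 0.624. The adjusted p with the block was 0.887 for both. Among 9 genes around CSF1R, the ligands CSF1 and IL34 differed by 0.18 and 0.08 and the receptor CSF3R by 0.14, with -0.77 for the adaptor GRB2 and -0.19 for the signalling chain TYROBP. The mean of GRB2 rests on number 2, with differences of -0.13, -2.19 and 0.02 in numbers 1, 2 and 3 (standard error 1.465).

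ITGB2, the beta chain that pairs with ITGAM, lay above 3 on all 6 arrays. It read 6.58, 5.30 and 4.11 in DMSO and 7.91, 3.86 and 4.95 with Vorinostat, a difference of 0.24 (standard error 1.21) with the groups overlapping. Of the other 7 genes in the list of leukocyte integrins and their regulators, ICAM1 differed by 0.10, ICAM3 by -0.22 and TLN1, which the study lists as decreasing, by -0.15. For TLN1 this is short of the 2-fold change that the study's list required. Among 8 costimulatory genes CD83 differed by 0.57 and CD40 by 0.26, with -0.36 for CD274 and -0.23 for CD58. By number CD83 differed by 0.32, 1.37 and 0.04 (standard error 0.35), so most of its mean comes from number 2. In the list of Siglecs and inhibitory receptors, with 11 genes, SIGLEC1, the sialoadhesin of macrophages, read 1.30 to 1.48 in DMSO and 1.50 to 1.86 with Vorinostat. Its groups lay apart, with a difference of 0.29 (standard error 0.13, unadjusted p = 0.0705 from limma). CD300A differed by 0.07, SIRPA by -0.17 and PTPN6 by -0.88. By number PTPN6 differed by -0.39, -1.97 and -0.28 (standard error 1.55), so most of its mean comes from number 2.

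Of 14 scavenger and clearance genes 0 were higher and 1 was lower in each number, against 13.0% and 13.7% of all genes. That one was PROS1, a bridging ligand of MERTK, which read 2.45, 1.69 and 1.82 in DMSO and 1.58, 1.50 and 1.52 with Vorinostat. The groups did not overlap, Vorinostat being lower, with a difference of -0.45 (standard error 0.22, unadjusted p = 0.0890 from limma). The other bridging ligand GAS6 differed by 0.20, STAB1 by 0.21 and OLR1 by -0.19. CD163L1, a relative of CD163 that the study lists as increasing on these samples, differed by 0.33, -1.24 and 0.40 in numbers 1, 2 and 3. Its mean was -0.17, the other way from the study's list. Among 6 Fc receptor genes FCGR2B differed by 0.53, the kinase SYK by 0.40, FCER1G by -0.73 and FCGR1A by -0.02. SYK was higher in each number, by 0.42, 0.23 and 0.56, with an unadjusted p from limma of 0.639 without the block (standard error 0.81) and 0.0226 with it, and an adjusted p = 0.887 with it.

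Some other genes of the monocyte lineage lay above 3 on every array. Of the 9 members 3 lay above 3 on at least 1 array, against 33.7% of all genes. Above 3 on all 6 arrays lay 3 of 6 genes of the Fc receptor list (FCER1G, FCGRT and SYK) and 3 of 8 transcription factors (CEBPA, CEBPD and IRF8). So did 2 of 17 secreted and intracellular proteins (LYZ and AIF1), against 0 of 9 members and 5.84% of all genes. Some came close to that mark, with lowest values of 3.13 for LYZ, 3.29 for SYK, 3.36 for CEBPA, 3.38 for CEBPD and 3.57 for FCGRT. The lowest values of FCER1G, AIF1 and IRF8 were 4.1, 5.9 and 6.1. Other lists were like the members, with 0 of 16 Toll-like receptor partners and 0 of 8 costimulatory genes above 3 on every array. The same held for 0 of 11 genes of the Siglec list and 0 of 14 clearance genes. Of the genes around CSF1R 1 of 9 lay above 3 on every array, and of the leukocyte integrin list 1 of 8. Of the 17 proteins 3 were positive and 14 negative, with a median of -0.18, against 46.9% positive and a median of -0.02 over all genes. Within numbers 1, 2 and 3 the median of the 17 was -0.23, -0.38 and 0.09, so number 3 went the other way. Of the 11 housekeeping genes 11 were negative, with a median of -0.51. The part of signal differences between arrays in both lists was not tested. The protease inhibitor SERPINA1 was lower in each number, at 1.90 to 2.17 in DMSO and 1.58 to 1.74 with Vorinostat, and differed by -0.33 (standard error 0.12, unadjusted p = 0.0333 and adjusted p = 1 from limma), while with the block the unadjusted p was 0.0636 and the interval -0.68 to 0.03. The galectin LGALS3 was higher in each, by 2.66, 0.61 and 0.13, FCN1 differed by 0.05 and S100A9 by -0.21. Among the factors CEBPD differed by 0.20, EGR1 by 0.16, MAF by -0.08 and SPI1, which encodes PU.1, by -0.21 at values of 1.88 to 2.71.

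**Figure D4:**
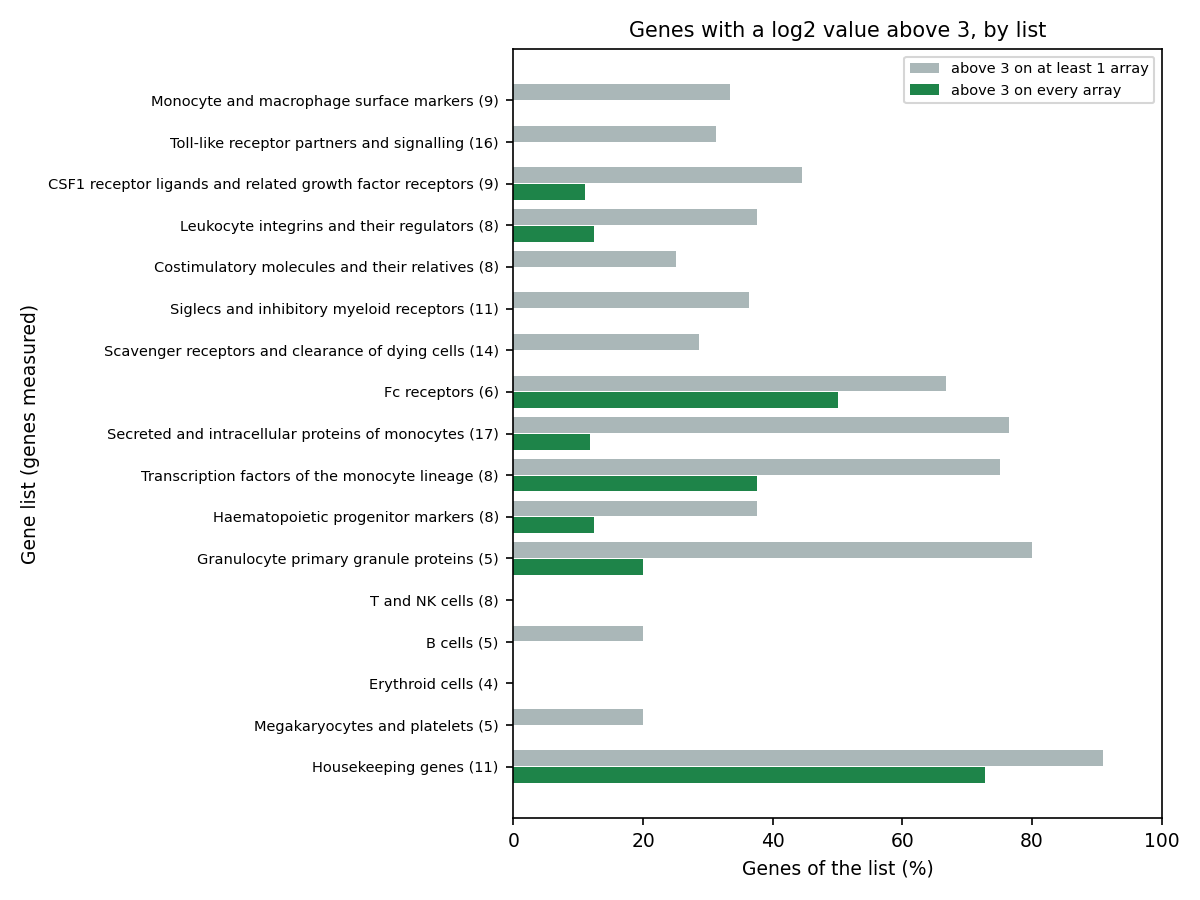
Share of the genes of each list, in percent, with a log2 value above 3 on at least 1 array (grey) and on every array (green). Each gene is read by its brightest probe set, and the number of genes measured stands in brackets. Of the surface markers 3 of 9 reach the line on some array and 0 on every array, and of the T and NK cell and the erythroid genes none does.

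Markers of other cells were also followed. The 5 granulocyte granule genes were all negative, and 3 of them were lower in each number, against 13.7% of all genes, with ELANE at -2.05 and MPO at -0.51. ELANE differed by -1.07, -4.23 and -0.83 in numbers 1, 2 and 3 (standard error 1.39, unadjusted p = 0.197 from limma). In number 2 the housekeeping median also differed by -1.70, and the part of signal differences between arrays in this was not tested. MPO stayed under 3 on every array. The study lists ELANE, and of the housekeeping genes PGK1, as decreasing on these samples, so their direction is not independent evidence. PGK1 differed by -0.66 (unadjusted p = 0.633 from limma), short of the 2-fold change that the study's list required. The housekeeping genes were negative in 11 of 11, with a median of -0.51, among them B2M at -0.96 and PPIA at -1.33. Of 8 progenitor genes 7 were negative, with KIT at -0.23, CD34 at -0.11 and PROM1 at 0.04. Over all genes 46.9% were positive. Markers of T and NK cells lay under 3 on every array in 8 of 8 genes (CD3E 0.09, NCR1 0.32, CD3D -0.11, CD8A -0.15), and so did those of erythroid cells in 4 of 4 (ALAS2 0.31, EPB42 0.32). Most genes did so too, as 33.7% of all genes lay above 3 on at least 1 array. Of the B cell genes, PAX5 differed by 0.26 and CD79B by -0.23, and CD79A, at 0.85, lay above 3 on Vorinostat replicate 2 alone. Of the megakaryocyte genes, GP9 differed by 0.14, PPBP by 0.12 and ITGA2B by -0.22. In these bulk samples fewer cells of a type and less RNA per cell cannot be told apart.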

How the data were processed

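RNA of the 6 samples was hybridised to Affymetrix HG-U133 Plus 2.0 arrays, and the scanner files were imported into Partek Genomics Suite by the authors. The authors deposited 1 value per probe set and array, read here as log2 from its range. MAS5 and RMA are named in the submitters' processing notes without a role, and which of them made the values is not given in the sources used here. Control probe sets were left out, which left 54613, of which 41091 name 1 gene (19775 genes), 1801 several and 11721 none in GEO's platform annotation. Array number limits the precision.

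Vorinostat minus DMSO was fitted on all probe sets with limma 3.58.1 (lmFit and eBayes) in R 4.3.3, with Benjamini-Hochberg adjustment over all of them. The study's threshold was taken as a change of more than 2-fold and p under 0.05 before adjustment. The fit was tested on simulated data. Arrays with the same replicate number deviated together (correlations of 0.874, 0.599 and 0.672 for numbers 1, 2 and 3), so by the rule used here (every pair over 0.1) the number was taken to pair them, and the fit with it as a block is given beside the first. Number 1 alone stood apart: DMSO replicate 3 with Vorinostat replicate 2 gave 0.695 and DMSO replicate 2 with Vorinostat replicate 3 gave 0.594. The pairing within numbers 2 and 3 is therefore not shown by these values. Each p or interval with the block, and each difference or count by number, rests on it. An exact permutation test of 3 against 3 samples cannot give a two-sided p under 0.1 and was not used.

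Every member probe set is described. Where 1 value per gene is used, it is that of the probe set brightest on average. Of each of 16 lists the 2 genes with the smallest p in each direction are named, and others where they work with a member. The members and lists were chosen with earlier results of these data known, and the value of 3 after the values were seen. Beside CD33, 18 list genes were not analysed here. Promoter sequences are those of RefSeq (GRCh38.p14). Alternatives were the block, quantile normalisation, median centring, a filter on dim probe sets, the mean of all probe sets of a gene, the methods' t-test and leaving out arrays.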

Additional observations from a re-analysis of the deposited data

How the results depend on the processing

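Without a block 24 probe sets of the whole table passed the threshold of the study. With the replicate number as a block it was 227, after quantile normalisation 117, with a mean above 3 required 1, by the methods' t-test 5, and 21 to 288 when arrays were left out. At this threshold the study reported more genes, both directions together, than any of these counts of probe sets, and the reason was not tested. The block, which in this balanced design leaves each difference as it is, moved no member probe set past that threshold, and the standard error of the LY86 difference of 0.79 was 0.10 in place of 0.42. Quantile normalisation took 1 member past it, LY86 at 1.14, and gave -0.089 for CD14. Without both number 1 arrays and with the block, an alternative chosen after seeing the data, CD14 was -0.19, CD163 (215049_x_at) 0.020 and CD36 (209555_s_at) 0.085. Leaving out arrays gave 0 to 1 members past the threshold, the 1 being LY86 without DMSO replicate 1. The range for LY86 was 0.48 to 1.12. Leaving out 1 array leaves the other array of its number without a partner, so these differences also take in the spread between replicate numbers. The ranges were -0.19 to 0.29 for CD14, -0.026 to 0.076 for ITGAM (205786_s_at), -0.12 to 0.031 for CSF1R, -0.10 to 0.14 for MERTK (211912_at), -0.14 to 0.090 and -0.013 to 0.22 for CD163 (215049_x_at and 216233_at) and -0.77 to 0.86 for TLR2. For CD36 they were -1.51 to 0.80 (206488_s_at), -0.11 to 0.10 (209554_at), -0.77 to 0.70 (209555_s_at), -1.77 to 0.61 (228766_at) and -0.054 to 0.18 (242197_x_at). The median of the member genes, 0.03, was 0.22 with the filter on dim probe sets, which keeps fewer genes, and 0.021 to 0.36 when arrays were left out, at 0.26 without DMSO replicate 1, 0.36 without Vorinostat replicate 2 and 0.15 without Vorinostat replicate 3. The cause of the other shifts was not tested. Dim signal limits the rest, since 15 of the 20 probe sets never passed a log2 value of 3.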
